A study of Mus musculus with 9 samples.

Results

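The RNA polymerase subunits and general transcription factors examined here are 72 genes, measured by 83 probe sets. They were chosen by gene symbol alone: a probe set had to carry a single symbol that begins with Polr1, Polr2, Polr3, Gtf2, Gtf3 or Taf followed by a digit. No measured value enters that rule, but the group was selected on knowledge of earlier results from these same comparisons, so its counts describe these arrays and are no independent evidence of a direction. The array held 19937 genes with 21640 such single-symbol probe sets. By prefix the members were 5 Polr1, 13 Polr2, 9 Polr3, 15 Gtf2, 6 Gtf3 and 24 Taf genes. Of these, 7 genes had several probe sets, and the brightest probe set on average stood for the gene. Another 4 probe sets carried a matching symbol together with other symbols and were left out.

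The samples were RN2 cells, a line of mouse acute myeloid leukaemia labelled MLL-AF9/NrasG12D, and each of 9 Affymetrix arrays measured RNA from 1 sample. Every culture carried a hairpin in the TRMPV construct and received 1 ug/ml doxycycline for 96 h, the controls included. Brg1, the SWI/SNF ATPase encoded by Smarca4, was knocked down with the hairpin Brg1sh_3232, Brg1sh_3364 or Brg1sh_4935 on 2 arrays each; the Rluc hairpin, against Renilla luciferase, was the control on 3 arrays. The cell line name of the Rluc arrays has an added term, TtTMPV, that the knockdown arrays lack, so a difference in host line and the knockdown cannot be told apart. Nothing states that arrays of a group came from separate cultures, so the p-values cover no more than array-to-array spread, which may be technical.

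Cells use 3 nuclear RNA polymerases. Pol I makes the large ribosomal RNA precursor in the nucleolus, Pol II makes messenger RNA, and Pol III makes transfer RNA, 5S ribosomal RNA and other short RNAs. Each enzyme needs general factors to find its promoters: SL1 for Pol I, TFIIA to TFIIH and the TATA-binding complex TFIID for Pol II, and TFIIIA to TFIIIC for Pol III. Several small subunits are shared between the enzymes, so a gene name with Polr1 or Polr2 does not always mean a subunit of that enzyme alone. Output of Pol I and Pol III is known to follow cell growth, and the MYC protein is known to act on all 3 systems.

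The targeted gene was checked first. Smarca4 stood at 10.67 and 10.90 in Brg1sh_3232, 10.78 and 10.81 in Brg1sh_3364 and 10.70 and 10.76 in Brg1sh_4935, against 11.79, 11.77 and 11.79 in Rluc (log2 expression), and it fell by 1.02 on the log2 scale over the 3 hairpins (SE 0.05, limma adjusted p = 2.22e-06). Array medians lay between 7.39 and 7.49. Over the same arrays all 8 macrophage and monocyte markers rose with each hairpin, and their summed log2 level was 93.65 to 94.54 in Brg1sh_3232, 91.52 to 91.70 in Brg1sh_3364 and 95.49 in both Brg1sh_4935 arrays, against 83.78 to 84.95 in Rluc. In the mean of the hairpins, 3 of 8 leukaemia line markers were lower and 3 higher, and 1 of 6 neutrophil markers was lower and 3 higher. Among all genes 15% were lower and 13.3% higher. Leukaemia line markers were 3 lower and 2 higher with Brg1sh_3232, 4 and 3 with Brg1sh_3364 and 3 and 1 with Brg1sh_4935. Neutrophil markers were 1 and 2, 0 and 4, and 1 and 2 in the same order. Of 5 measured markers of other cells only Pecam1, which myeloid cells also carry, was called. The part of these shifts in the results below was not tested, and in such bulk RNA fewer cells of a type and less RNA per cell cannot be told apart.

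Most of the changes among the members were decreases of modest size. A gene was called at a limma adjusted p below 0.05, with adjustment over all 19937 genes. With Brg1sh_3232, 25 of the 72 genes were lower and 2 higher, against 11.3% lower and 9.59% higher among all genes. With Brg1sh_3364, 28 were lower and 3 higher, against 12.2% and 13.6% of all genes. With Brg1sh_4935, 31 were lower and 0 higher, against 12.3% and 9.79% (1 member, at an unadjusted limma p below 0.05, was higher). In the mean of the 3 hairpins against Rluc, 39 (54.2%) were lower and 2 higher, against 15% and 13.3% of all genes. Higher genes made up 47.1% of all calls in that mean comparison and 44.3% with Brg1sh_4935; with each array centred on its median these shares were 36.5% and 31.6%. The median log2 change of the 72 genes was -0.14 with Brg1sh_3232, -0.17 with Brg1sh_3364 and -0.20 with Brg1sh_4935, and the medians of all genes were 0.01, -0.01 and 0.00. Leaving out 1 array of a hairpin lowered that hairpin's own count of lower members, and its count of lower genes over all genes fell as well. With any 1 array left out, the median of the 72 genes lay between -0.15 and -0.12 with Brg1sh_3232. It lay between -0.20 and -0.13 with Brg1sh_3364 and between -0.21 and -0.17 with Brg1sh_4935. These 3 comparisons share the Rluc arrays and are not independent of each other.

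The members were mostly well expressed genes, and calls were more frequent among such genes. Of the 72, 69 lay at or above the median level of all genes, and the others were Gtf2a1l, Taf7l and Taf7l2, paralogs known from the germ line. Among the 9969 genes at or above that level, 20.3% were called lower with Brg1sh_3232, 21.0% with Brg1sh_3364, 22.7% with Brg1sh_4935 and 27.0% in the mean of the hairpins. The shares of these 69 members were 36.2%, 40.6%, 44.9% and 56.5% in the same order. When the 3 hairpin means served as 3 replicates against the Rluc arrays, 15 of the 72 members (20.8%) were called lower, against 7.42% of all genes. Among the members named here, Polr1e, Polr1b, Polr2d, Polr3g, Gtf2h3, Gtf2f2, Gtf2e2, Gtf2f1, Gtf3c4, Taf5 and Taf2 kept their call in that fit and in every other alternative run. Polr3d, Polr2b, Taf6l, Taf5l and Gtf3a lost it in 7 to 11 of 18 alternatives. All 6 knockdown arrays lay below all 3 Rluc arrays for 32 of the 72 members, against 12.1% of all genes, and above them for 1 member, Taf8, against 10.7%.

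**Figure D1:**
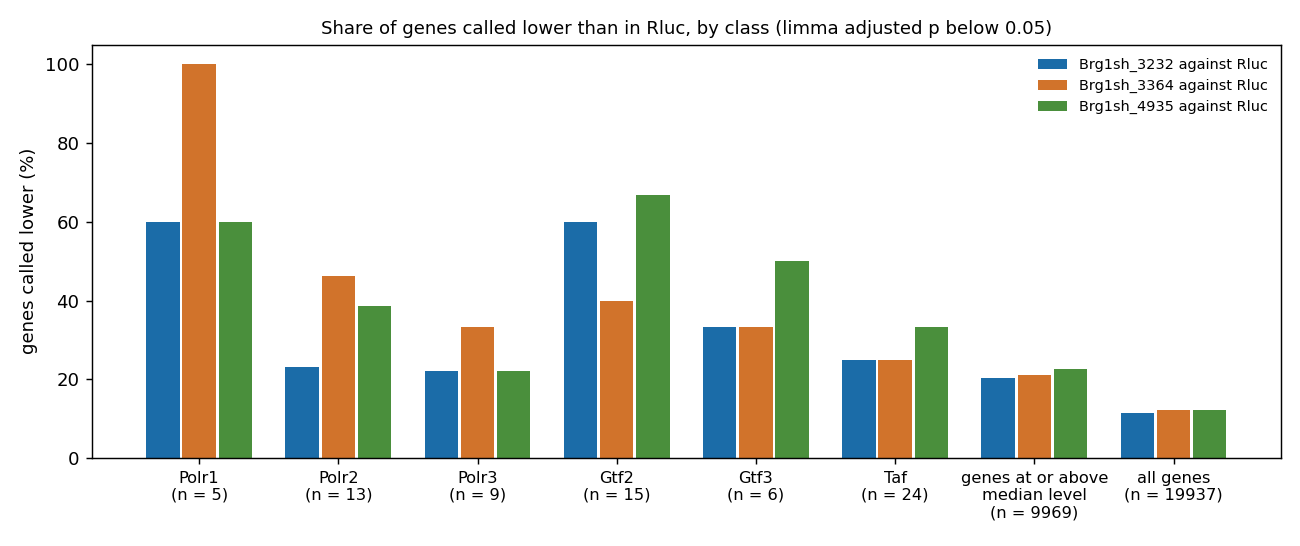
Bars give the share of genes called lower than in Rluc (percent, limma adjusted p below 0.05) in each symbol class, with 1 bar for each Brg1 hairpin. The rightmost groups show genes at or above the median level (20.3% to 22.7%) and all genes (11.3% to 12.3%); Polr1 reached 60.0% of its 5 genes with Brg1sh_3232 and Brg1sh_4935 and all 5 with Brg1sh_3364, Gtf2 ranged between 40.0% and 66.7%, and the lowest Polr3 share was 22.2%.

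The classes did not share equally in these counts. In the mean of the hairpins, 5 of 5 Polr1, 7 of 13 Polr2, 4 of 9 Polr3, 10 of 15 Gtf2, 3 of 6 Gtf3 and 10 of 24 Taf genes were lower, and the 2 that rose were both Taf genes. In the same comparison 15% of all genes were lower and 13.3% higher. Among genes at or above the median level these shares were 27.0% and 23.0%. Median log2 changes in that comparison were -0.28 for Polr1, -0.16 for Polr2, -0.12 for Polr3, -0.21 for Gtf2, -0.14 for Gtf3 and -0.12 for Taf. Array by array, the median distance of the 5 Polr1 genes from their Rluc means was -0.21 and -0.30 in Brg1sh_3232, -0.45 and -0.43 in Brg1sh_3364 and -0.25 and -0.33 in Brg1sh_4935, against -0.11, -0.02 and 0.13 in the Rluc arrays themselves. For the 13 Polr2 genes the same measure was -0.06 and -0.08 in Brg1sh_3232, -0.15 and -0.20 in Brg1sh_3364 and -0.19 and -0.18 in Brg1sh_4935, against 0.03, -0.01 and -0.03 in Rluc. The differences between classes were not tested.

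Among the polymerase genes, the 2 with the largest mean decreases were Polr1e and Polr1b of Pol I. Polr1e, which encodes the Pol I subunit PAF53 and is part of no other polymerase, had a log2 level of 9.60 and 9.75 in Brg1sh_3232, 9.48 and 9.51 in Brg1sh_3364 and 9.62 and 9.57 in Brg1sh_4935, against 10.18, 10.21 and 10.29 in Rluc. Every knockdown array was below every Rluc array, and the level was 68.1%, 60.2% and 64.4% of Rluc with the 3 hairpins in that order. In the mean of the hairpins, the log2 level of Polr1e fell by 0.64 (SE 0.05, limma adjusted p = 1.35e-05). Its promoter window from RefSeq, 250 bases before to 50 after the gene start, lies at chr4:45018359-45018658 of GRCm38.p6 on the + strand. It is shown because this member changed most, with capitals on its single match to CCGGAAG, an ETS-type motif:
Polr1e: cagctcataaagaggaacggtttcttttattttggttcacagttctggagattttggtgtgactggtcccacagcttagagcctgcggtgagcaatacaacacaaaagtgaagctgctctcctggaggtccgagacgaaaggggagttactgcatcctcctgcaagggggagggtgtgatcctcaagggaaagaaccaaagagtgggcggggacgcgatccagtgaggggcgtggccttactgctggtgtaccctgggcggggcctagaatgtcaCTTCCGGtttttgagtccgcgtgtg

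Polr1b, the second largest Pol I subunit and part of its catalytic centre, stood at 11.10 and 11.21 in Brg1sh_3232, 10.87 and 10.76 in Brg1sh_3364 and 11.05 and 10.93 in Brg1sh_4935, against 11.35, 11.58 and 11.72 in Rluc. The groups did not overlap, the first Rluc array was the lowest control, and the Brg1sh_3364 arrays were lowest of all. Polr1b fell by 0.56 in the mean of the hairpins (SE 0.08, limma adjusted p = 0.00058), to 76.0%, 60.0% and 67.8% of Rluc with Brg1sh_3232, Brg1sh_3364 and Brg1sh_4935. Polr1a, the largest subunit, stood at 9.72 and 9.71 in Brg1sh_3232, 9.45 and 9.51 in Brg1sh_3364 and 9.69 and 9.72 in Brg1sh_4935, against 9.79, 9.84 and 10.08 in Rluc. One Rluc array was well above the other two, and Brg1sh_3364 was lowest. Polr1a was called with Brg1sh_3364 (log2 change -0.42, adjusted p = 0.00412), while its change was -0.19 with each of the other hairpins, with adjusted p = 0.143 for Brg1sh_3232 and 0.129 for Brg1sh_4935.

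Polr1c and Polr1d encode a pair of small subunits found in both Pol I and Pol III. Polr1c averaged 10.38 ± 0.07 in knockdown arrays (SD, n = 6) and 10.66 ± 0.13 in Rluc (SD, n = 3), and it fell by 0.28 (SE 0.06, limma adjusted p = 0.0051). Polr1d averaged 10.56 ± 0.12 and 10.82 ± 0.06 in the same sets, and it fell by 0.26 (SE 0.05, limma adjusted p = 0.003); its other probe set had a log2 difference of -0.30. Both had all 6 knockdown arrays below all 3 Rluc arrays. Of the 5 Polr1 genes, 0 passed the limma F test among hairpins and 3 had an unadjusted p below 0.05 in it. Of all 19937 genes 10.5% passed that test and 5146 had such an unadjusted p. The count of 0 does not show that the hairpins agreed.

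**Figure D2:**
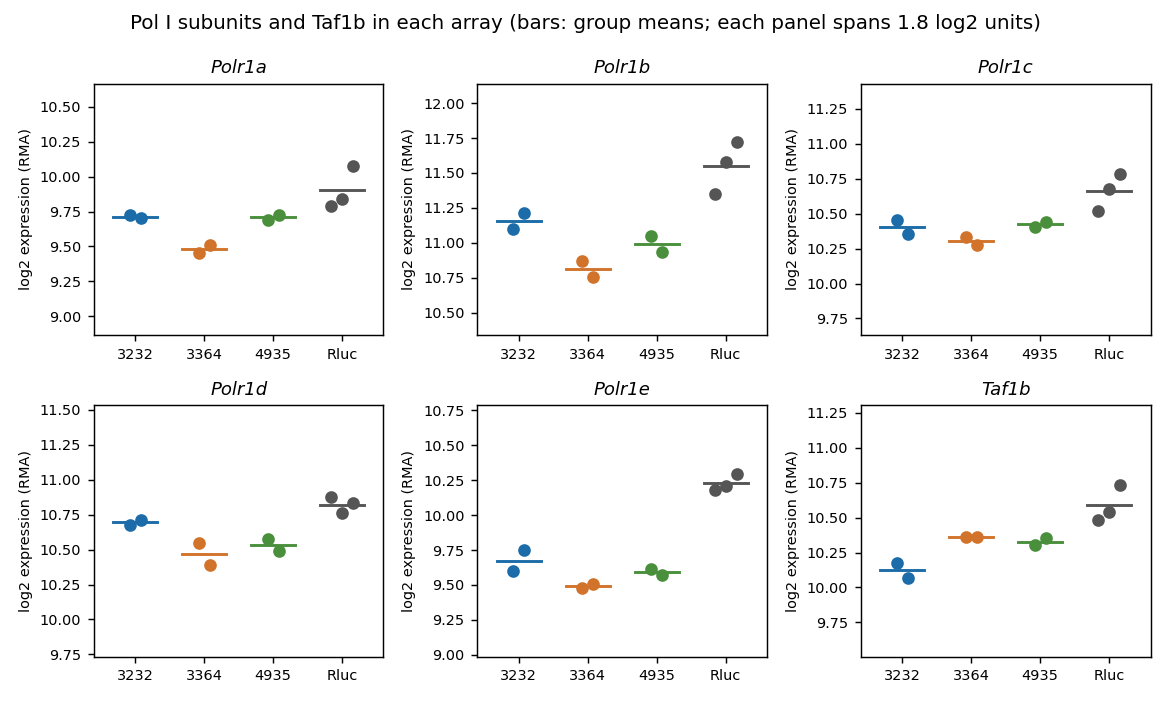
Each point is 1 array, with log2 expression (RMA) on the vertical axis, the 3 Brg1 hairpins at the left and Rluc at the right of each panel; bars are group means and every panel spans 1.8 log2 units. The 5 Polr1 genes and Taf1b have all 6 knockdown points below all 3 Rluc points, with the widest gap for Polr1e (9.48 to 9.75 in knockdown arrays, against 10.18 to 10.29 in Rluc).

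SL1, the factor that brings Pol I to the ribosomal RNA promoter, is made of Taf1a, Taf1b, Taf1c and Taf1d with the TATA-binding protein. Taf1b, which is known to resemble TFIIB, stood at 10.17 and 10.07 in Brg1sh_3232, 10.36 and 10.36 in Brg1sh_3364 and 10.30 and 10.35 in Brg1sh_4935, against 10.48, 10.54 and 10.74 in Rluc. Here Brg1sh_3232 was lowest, and all 6 arrays were below the Rluc arrays. Taf1b fell by 0.32 (SE 0.06, limma adjusted p = 0.00277). Taf1a fell by 0.22 and Taf1d by 0.25 (limma adjusted p = 0.0197 and 0.00835), and Taf1c had a log2 difference of -0.05 without a call. Rrn3, the factor that makes Pol I competent to start, averaged 11.65 ± 0.05 in knockdown arrays (SD, n = 6) and 11.97 ± 0.10 in Rluc (SD, n = 3), and it fell by 0.33 (limma adjusted p = 0.00126). Of the other Pol I genes measured outside the rule, Cd3eap, the partner subunit of Polr1e, fell by 0.20 (adjusted p = 0.00964). Ubtf, Twistnb, Znrd1 and Ttf1 were not called in the mean, at 0.09, -0.11, 0.02 and 0.08. For Ubtf all 6 knockdown arrays lay above the Rluc arrays. Cd3eap, Twistnb and Znrd1 also encode Pol I subunits, so not every Pol I subunit was called. Of these 6 genes, Rrn3 included, 2 were lower (33.3%), against 15% of all genes. Their changes lay below zero for 3 and above zero for 3.

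Of the 13 Polr2 genes, 7 were called lower in the mean (53.8%), with the largest decrease in Polr2l. Among all genes 15% were lower, and among genes at or above the median level 27.0%. Polr2l, a small subunit shared by all 3 polymerases, stood at 11.65 and 11.76 in Brg1sh_3232, 11.36 and 11.28 in Brg1sh_3364 and 11.46 and 11.52 in Brg1sh_4935, against 11.86, 11.82 and 11.84 in Rluc. The hairpins lay at separate levels, with Brg1sh_3364 lowest and Brg1sh_3232 close to Rluc. Polr2l fell by 0.34 in the mean (SE 0.04, limma adjusted p = 0.000254), and its change was -0.14 with Brg1sh_3232 (adjusted p = 0.0924), -0.52 with Brg1sh_3364 (adjusted p = 0.000117) and -0.35 with Brg1sh_4935 (adjusted p = 0.00129).

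Polr2d, which forms the detachable stalk of Pol II with Polr2g, averaged 10.02 ± 0.09 in knockdown arrays (SD, n = 6) and 10.33 ± 0.11 in Rluc (SD, n = 3), and it fell by 0.31 (limma adjusted p = 0.00502). Its stalk partner Polr2g had a log2 difference of -0.08 without a call. Polr2i, a subunit that serves transcript cleavage and fidelity, stood at 8.93 and 8.95 in Brg1sh_3232, 8.76 and 8.59 in Brg1sh_3364 and 8.67 and 8.72 in Brg1sh_4935, against 9.12, 8.97 and 8.95 in Rluc. One Brg1sh_3232 array was just inside the Rluc range, and the other 5 knockdown arrays were below it. Polr2i fell by 0.24 in the mean (limma adjusted p = 0.00779). Polr2c, part of the assembly platform of the enzyme, fell by 0.19 with the probe set used, while its other probe set had -0.07 without a call. Polr2f, another subunit of all 3 polymerases, fell by 0.17, and Polr2m, a regulator that binds Pol II, by 0.16.

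The catalytic subunits of Pol II are Polr2a and Polr2b. Polr2a, the largest subunit, with the C-terminal repeat domain, stood at 11.38 and 11.28 in Brg1sh_3232, 11.27 and 11.27 in Brg1sh_3364 and 11.15 and 11.10 in Brg1sh_4935, against 11.28, 11.39 and 11.16 in Rluc. The groups overlapped, and its change in the mean was -0.04 (SE 0.05, limma adjusted p = 0.719). Polr2b, the second largest subunit, fell by 0.16 in the mean (SE 0.05, limma adjusted p = 0.0354). Polr2e, Polr2g, Polr2h, Polr2j and Polr2k were also not called in the mean, with changes between -0.16 and 0.02. The 7 decreases thus comprised 4 of 7 subunits found in Pol II alone, 2 of 5 shared by all 3 enzymes, and Polr2m.

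**Figure D3:**
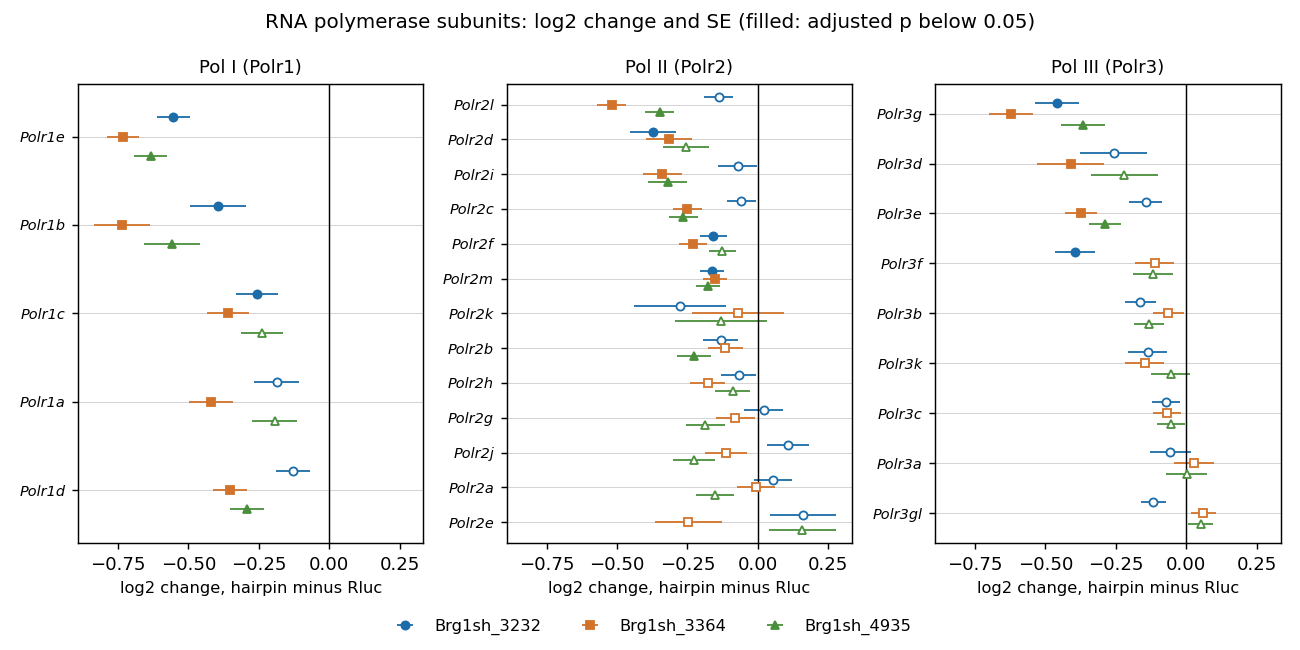
Points give the log2 change of each polymerase subunit gene, hairpin minus Rluc, for the 3 Brg1 hairpins; bars are standard errors of the fit, and filled points passed a limma adjusted p below 0.05. Panels hold the Polr1, Polr2 and Polr3 genes in order of their mean change: every Polr1 point lies below 0, and Polr2a, Polr3a and Polr3gl lie near it.

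In Pol III the largest decrease was in Polr3g. Polr3g and Polr3gl encode alternative forms of the same subunit; the Polr3g form is known from pluripotent and transformed cells, and the Polr3gl form from most tissues. Polr3g stood at 9.19 and 9.17 in Brg1sh_3232, 9.05 and 8.98 in Brg1sh_3364 and 9.23 and 9.32 in Brg1sh_4935, against 9.64, 9.50 and 9.79 in Rluc. All 6 knockdown arrays were below the Rluc arrays, and Polr3g fell by 0.48 in the mean (SE 0.06, limma adjusted p = 0.000359), to 72.8%, 65.0% and 77.5% of Rluc with Brg1sh_3232, Brg1sh_3364 and Brg1sh_4935. Polr3gl stood at 9.15 and 9.24 in Brg1sh_3232, 9.38 and 9.36 in Brg1sh_3364 and 9.35 and 9.37 in Brg1sh_4935, against 9.31 in each of the Rluc arrays. Its groups lay on both sides of Rluc and no comparison was called (mean change -0.00, SE 0.03, limma adjusted p = 0.98). The deposited Rluc values of Polr3gl are equal, so that group shows no spread for this gene. Equal values also occurred for other members. Polr3d had 8.98 in both Brg1sh_3232 arrays and Polr3f 9.79 in both Brg1sh_4935 arrays. The difference between the paralogs' changes was not tested. Their promoter windows from RefSeq (GRCm38.p6) are shown to set the pair side by side; Polr3g lies at chr13:81710964-81711263 on the - strand and Polr3gl at chr3:96594132-96594431 on the - strand. Capitals mark CCGGAAG in Polr3g, and CACGTG, the E-box that MYC proteins can bind, and CCAAT in Polr3gl, on either strand:
Polr3g: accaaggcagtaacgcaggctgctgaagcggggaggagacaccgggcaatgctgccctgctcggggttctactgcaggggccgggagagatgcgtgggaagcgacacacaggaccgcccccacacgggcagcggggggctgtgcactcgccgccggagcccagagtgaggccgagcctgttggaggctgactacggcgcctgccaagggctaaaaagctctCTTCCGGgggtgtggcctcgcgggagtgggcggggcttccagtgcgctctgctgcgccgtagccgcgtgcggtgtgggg
Polr3gl: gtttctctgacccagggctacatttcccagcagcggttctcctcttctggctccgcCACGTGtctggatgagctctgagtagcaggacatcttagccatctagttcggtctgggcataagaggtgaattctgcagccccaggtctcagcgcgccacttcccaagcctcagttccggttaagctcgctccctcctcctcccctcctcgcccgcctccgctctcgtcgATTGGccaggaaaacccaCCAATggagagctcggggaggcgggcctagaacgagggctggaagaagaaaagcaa

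The other Pol III subunits had smaller differences. Polr3e, a peripheral subunit, averaged 9.84 ± 0.11 in knockdown arrays (SD, n = 6) and 10.11 ± 0.07 in Rluc (SD, n = 3) and fell by 0.27 (limma adjusted p = 0.00165). Polr3f, of the initiation subcomplex that also holds Polr3c and Polr3g, fell by 0.21 (adjusted p = 0.0182), with 9.47 and 9.56 in Brg1sh_3232 set apart from 9.79 to 9.81 in the other knockdown arrays and from 9.82 to 10.06 in Rluc. Polr3d, the partner of Polr3e, fell by 0.30 with the weakest support of the 4 (SE 0.09, adjusted p = 0.0396), since its Rluc arrays spread over 9.01, 9.21 and 9.50. The catalytic subunits Polr3a and Polr3b had log2 differences of -0.01 (adjusted p = 0.938) and -0.12 (adjusted p = 0.0658), and Polr3c and Polr3k by -0.06 and -0.11 without a call.

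Of the Pol III factors, Gtf3c4 fell by 0.26 (SE 0.04, limma adjusted p = 0.000917) and Gtf3c3 by 0.23 (SE 0.05, adjusted p = 0.0119). Both belong to TFIIIC, the complex that reads the internal promoters of transfer RNA genes. Gtf3a, which encodes TFIIIA, the factor specific to 5S ribosomal RNA genes, stood at 10.75 and 10.89 in Brg1sh_3232, 10.59 and 10.48 in Brg1sh_3364 and 10.59 and 10.63 in Brg1sh_4935, against 10.86, 10.78 and 10.83 in Rluc. Its Brg1sh_3232 arrays lay around the Rluc level and the other 4 below it, and it fell by 0.17 in the mean (adjusted p = 0.0235). Gtf3c1, Gtf3c5 and Gtf3c6, also of TFIIIC, were not called in the mean, at -0.11, -0.05 and -0.11. Among 11 Pol III partners the mean comparison called 2 lower (18.2%) and 2 higher. Of all genes 15% were lower and 13.3% higher, and of genes at or above the median level 27.0% and 23.0%. These counts do not set the Pol III partners apart. Maf1, the known repressor of Pol III, averaged 11.26 ± 0.05 in knockdown arrays (SD, n = 6) and 11.04 ± 0.05 in Rluc (SD, n = 3) and rose by 0.22 (limma adjusted p = 0.00196). Crcp, a Pol III subunit with a symbol outside the rule, fell by 0.28 (adjusted p = 0.00485).

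Of the 15 Gtf2 genes, which include initiation factors of Pol II, 10 were lower in the mean (66.7%), against 15% of all genes and 27.0% of genes at or above the median level. Gtf2f2, the small subunit of TFIIF, which escorts Pol II to the promoter, stood at 10.76 and 10.91 in Brg1sh_3232, 10.65 and 10.60 in Brg1sh_3364 and 10.77 and 10.80 in Brg1sh_4935, against 11.20, 11.18 and 11.24 in Rluc. The groups were clearly apart, and Gtf2f2 fell by 0.46 (SE 0.04, limma adjusted p = 5.33e-05). Its partner Gtf2f1, the large TFIIF subunit, averaged 11.65 ± 0.08 in knockdown arrays (SD, n = 6) and 11.95 ± 0.05 in Rluc (SD, n = 3) and fell by 0.30 (adjusted p = 0.00169). Gtf2e2 and Gtf2e1, the subunits of TFIIE, which recruits TFIIH, fell by 0.40 (adjusted p = 7.33e-05) and 0.25 (adjusted p = 0.00848). Gtf2b, which encodes TFIIB and joins the polymerase to the TATA-binding protein, fell by 0.18 (adjusted p = 0.019).

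TFIIH opens the promoter DNA, repairs damaged DNA and phosphorylates Pol II. All 4 of its measured Gtf2h subunits were lower in the mean. Among all genes 15% were lower, and among genes at or above the median level 27.0%. Gtf2h3 stood at 8.34 and 8.43 in Brg1sh_3232, 8.42 and 8.26 in Brg1sh_3364 and 8.27 and 8.28 in Brg1sh_4935, against 8.64, 8.83 and 8.95 in Rluc. The groups did not overlap, and Gtf2h3 fell by 0.47 (SE 0.07, limma adjusted p = 0.000815). Gtf2h4, Gtf2h1 and Gtf2h5 fell by 0.25, 0.24 and 0.18. Of the TFIIH members with other names, Ccnh, the cyclin of its kinase module, averaged 10.39 ± 0.06 in knockdown arrays (SD, n = 6) and 11.04 ± 0.11 in Rluc (SD, n = 3) and fell by 0.65 (limma adjusted p = 4.67e-05). The kinase Cdk7 fell by 0.27 (adjusted p = 0.000731), and the helicases Ercc2 and Ercc3 and the assembly factor Mnat1 were not called in the mean, at -0.11, 0.05 and -0.02.

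Not every Gtf2 gene moved. TFIIA, which steadies the TATA-binding protein on DNA, had no call in the mean for Gtf2a1 (-0.06), Gtf2a2 (0.00) or the germ-line form Gtf2a1l (-0.02). In the TFII-I family, Gtf2ird1 fell by 0.21 (limma adjusted p = 0.0136), while Gtf2i and Gtf2ird2 had log2 differences of -0.11 and 0.01 without a call.

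**Figure D4:**
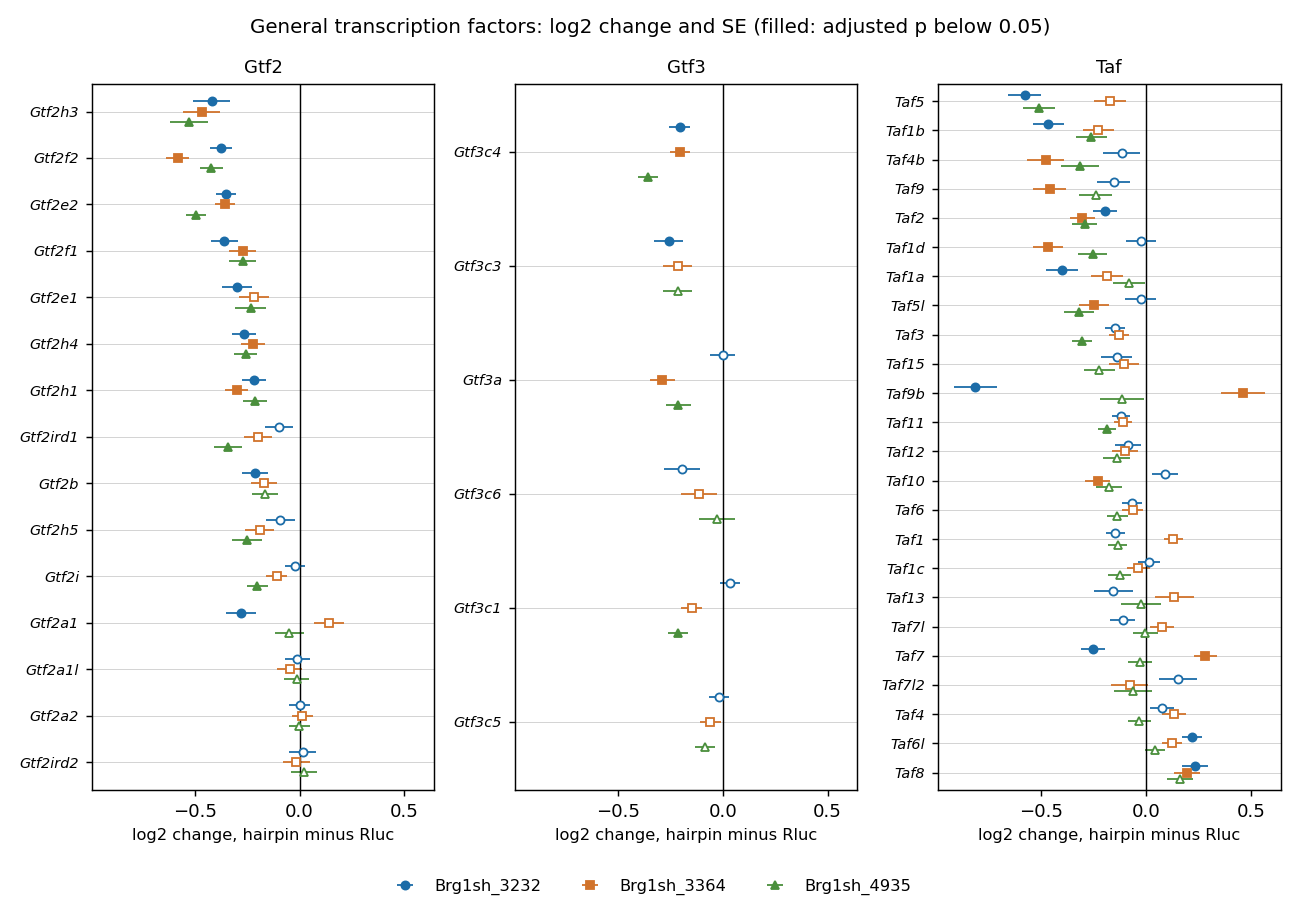
Points give the log2 change of each Gtf2, Gtf3 and Taf gene, hairpin minus Rluc, for the 3 Brg1 hairpins; bars are standard errors of the fit, and filled points passed a limma adjusted p below 0.05. The upper Gtf2 genes have their 3 hairpins close together, whereas Taf9b ranges between -0.81 with Brg1sh_3232 and 0.46 with Brg1sh_3364.

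The 19 TAFs of TFIID, of the related SAGA coactivator and their tissue paralogs gave 7 decreases (36.8%) and 2 increases in the mean, against 27.0% lower and 23.0% higher among genes at or above the median level. Taf5, a core TFIID scaffold subunit that is also in SAGA, stood at 9.27 and 9.11 in Brg1sh_3232, 9.72 and 9.47 in Brg1sh_3364 and 9.29 and 9.22 in Brg1sh_4935, against 9.77, 9.74 and 9.79 in Rluc. One Brg1sh_3364 array almost reached the Rluc level, while the arrays of the other hairpins lay well below it. Taf5 fell by 0.42 in the mean (SE 0.06, limma adjusted p = 0.000723). Taf2, which touches the initiator element, averaged 11.63 ± 0.08 in knockdown arrays (SD, n = 6) and 11.89 ± 0.02 in Rluc (SD, n = 3) and fell by 0.26 (adjusted p = 0.00218). Taf4b, a gonad and lymphoid form of Taf4, fell by 0.30 and Taf9 by 0.28, whereas Taf4 itself had a log2 difference of 0.06 without a call. Taf3, Taf5l and Taf11 also fell, by 0.19, 0.20 and 0.14. Tbp, the TATA-binding protein used by all 3 polymerases, averaged 11.29 ± 0.02 in knockdown arrays (SD, n = 6) and 11.32 ± 0.04 in Rluc (SD, n = 3) and was not called (adjusted p = 0.656). Taf15, an RNA-binding protein rather than a core TFIID subunit, had a log2 difference of -0.16 (adjusted p = 0.0717).

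The 2 rises were small. Taf8, which pairs with Taf10 and is needed to bring it into TFIID, stood at 8.89 and 9.08 in Brg1sh_3232, 8.97 and 8.93 in Brg1sh_3364 and 8.94 and 8.89 in Brg1sh_4935, against 8.73, 8.80 and 8.72 in Rluc. All 6 knockdown arrays were above the Rluc arrays, and Taf8 rose by 0.20 in the mean (SE 0.05, limma adjusted p = 0.0127); the call was lost without the third Rluc array (adjusted p = 0.053). Taf6l, the SAGA form of Taf6, rose by 0.13 (SE 0.04, adjusted p = 0.0305), and Taf6 had a log2 difference of -0.09 without a call. The Taf8 promoter window from RefSeq is at chr17:47502242-47502541 of GRCm38.p6 on the - strand. It is shown as that of the member whose 6 arrays were all higher, with capitals on its matches to CACGTG:
Taf8: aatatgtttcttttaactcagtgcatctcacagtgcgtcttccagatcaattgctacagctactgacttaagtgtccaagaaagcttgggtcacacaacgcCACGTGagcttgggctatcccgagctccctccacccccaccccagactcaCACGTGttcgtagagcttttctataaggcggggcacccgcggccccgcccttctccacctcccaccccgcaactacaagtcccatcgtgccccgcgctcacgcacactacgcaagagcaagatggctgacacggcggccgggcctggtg

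A smaller set of members responded differently to the 3 hairpins. The F test among hairpins, which uses no Rluc level, called 10 of 72 members, near the 10.5% called among all genes and below the 17.7% of genes at or above the median level, so this count does not set the members apart. The count was smaller without either Brg1sh_3364 array, either Brg1sh_4935 array or the second Brg1sh_3232 array. In each of these fits the share over all genes was smaller too. Between pairs of hairpins, 9 members differed between Brg1sh_3364 and Brg1sh_3232 (9.66% of all genes), 1 between Brg1sh_4935 and Brg1sh_3232 (1.02%) and 4 between Brg1sh_4935 and Brg1sh_3364 (7.61%). Taf9b, a paralog of Taf9 found in the same complexes, was the most divergent. It stood at 7.83 and 7.73 in Brg1sh_3232, 9.20 and 8.92 in Brg1sh_3364 and 8.40 and 8.56 in Brg1sh_4935, against 8.43, 8.66 and 8.69 in Rluc. It fell by 0.81 with Brg1sh_3232 (limma adjusted p = 0.000779) and rose by 0.46 with Brg1sh_3364 (adjusted p = 0.0102), so that Brg1sh_3364 stood 1.28 above Brg1sh_3232 on the log2 scale (SE 0.11, adjusted p = 0.00045). With Brg1sh_4935 its log2 difference was -0.11 (adjusted p = 0.568). The mean over the hairpins, -0.15 (adjusted p = 0.22), averages a called decrease, a called increase and this value.

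Taf7, a TFIID subunit known to restrain Taf1, showed the same order with a smaller range. It stood at 8.247 and 8.400 in Brg1sh_3232, 8.854 and 8.865 in Brg1sh_3364 and 8.503 and 8.592 in Brg1sh_4935, against 8.562, 8.576 and 8.589 in Rluc, with log2 changes of -0.25, 0.28 and -0.03. The first was called lower and the second higher (limma adjusted p = 0.0114 and 0.00493). Taf1, the largest TFIID subunit, stood at 10.32 and 10.29 in Brg1sh_3232, 10.61 and 10.55 in Brg1sh_3364 and 10.35 and 10.28 in Brg1sh_4935, against 10.45, 10.48 and 10.43 in Rluc, and none of its changes against Rluc was called (-0.15, 0.13 and -0.13). Its Brg1sh_3364 arrays lay above Rluc and its other knockdown arrays below it. Gtf2a1 was called lower with Brg1sh_3232 (-0.28, adjusted p = 0.0215) and had values of 0.14 and -0.05 with Brg1sh_3364 and Brg1sh_4935. Taf10, of TFIID and SAGA, was called lower with Brg1sh_3364 (-0.23, adjusted p = 0.0231) and had 0.09 with Brg1sh_3232 and -0.17 with Brg1sh_4935.

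**Figure D5:**
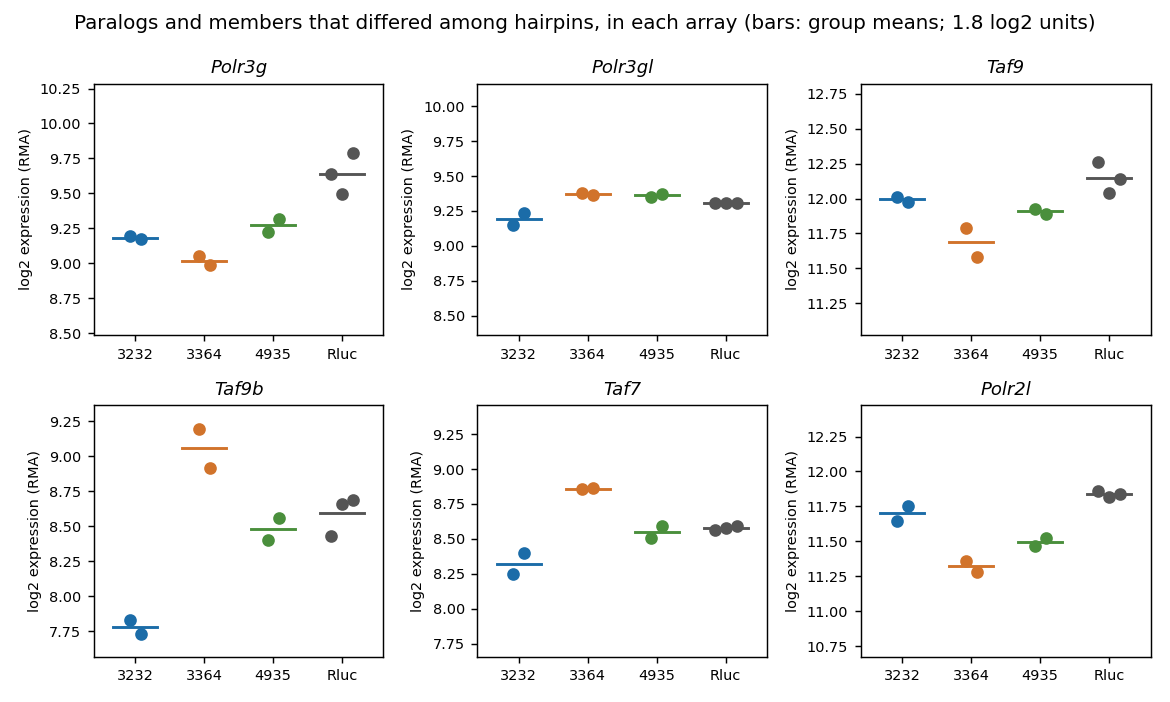
Each point is 1 array, with log2 expression (RMA) on the vertical axis, the 3 Brg1 hairpins at the left and Rluc at the right of each panel; bars are group means and every panel spans 1.8 log2 units. Polr3g lies below Rluc in all 6 knockdown arrays and Polr3gl on both sides of it; Taf9b and Taf7 are lowest with Brg1sh_3232 and highest with Brg1sh_3364, and Polr2l is lowest with Brg1sh_3364.

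Several members were seen by more than 1 probe set, and for some the choice matters. Polr2h, a subunit of all 3 polymerases, had a log2 difference of -0.11 (adjusted p = 0.126) with the probe set used, while its other probe set had a log2 difference of -0.38 and was called when all rows of the deposited values were tested (limma adjusted p = 0.00284). For Polr2c and Polr3e, called in the mean with the probe set used, the other probe set had log2 differences of -0.07 and -0.18 without a call. With Brg1sh_3364 the other Taf10 probe set had a log2 difference of -0.20. When all rows were tested, neither Taf10 probe set was called with that hairpin. The limma adjusted p was 0.0547 for the probe set used and 0.428 for the other. The 6 probe sets of Taf1d all had negative log2 differences in the mean, between -0.15 and -0.68. With Brg1sh_3232 the probe set used had -0.02, while the others lay between -0.07 and -0.64. Taf13 had a probe set on each side of zero, at -0.01 and 0.03, and neither was called. The genes with several probe sets may include near-identical copies elsewhere in the genome, so their values are uncertain.

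The wider machinery, a list of 40 measured partner genes whose symbols fall outside the rule, had 15 lower (37.5%) and 2 higher in the mean, against 15% and 13.3% of all genes and 27.0% and 23.0% of genes at or above the median level. Their median log2 change was -0.10. Of 19 Pol II and TFIIH partners 8 were lower (42.1%). They included Rpap3, Gpn1, Gpn2 and Gpn3, which help assemble Pol II in the cytoplasm and fell by 0.34, 0.21, 0.22 and 0.22. Of 4 genes of mitochondrial transcription 3 were lower, Tfb1m by 0.34, Tfam by 0.26 and Tfb2m by 0.23, and the mitochondrial polymerase gene Polrmt had a log2 difference of -0.06 without a call.

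Promoter windows were in the RefSeq table for 63 members, 75 windows in all. Both strands were searched for 4 short motifs, which can overlap each other. CACGTG occurred in 24% of the member windows, against 10.4% of the 10270 windows of genes at or above the median level and 7.15% of all 32851 windows. CCGGAAG occurred in 33.3%, against 19.2% and 8.86%, CCAAT in 30.7%, against 38.2% and 37.4%, and TATAAA in 13.3%, against 6.67% and 13.6%. CACGTG was in 0 of 5 Polr1 windows. Of 16 members with CACGTG in a window, such as Polr3gl and Taf8 above, 5 were called lower in the mean. Of 47 with windows but no CACGTG, 29 were. For CCGGAAG the counts were 12 of 23 with the motif and 22 of 40 without it. For CCAAT they were 10 of 21 and 24 of 42, and for TATAAA 4 of 10 and 30 of 53. The window of Polr1b, not printed here, held none of the 4 motifs. These matches describe letters in a 300-base window and were not tested for a link with the changes.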

How the data were processed

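Expression was measured on 9 arrays. The authors deposited log2 expression per probe set, in 34760 rows with no missing value; per the submitters' processing notes they come from RMA, whose software, version and array build are not given in the sources. RMA background-corrects, quantile-normalizes and summarises probes, so a shift common to all genes would not show. Scanner files, scan dates and detection calls were not used here; probe set levels serve only to sort genes at or above the median level, and no gene's level is set against another's. Genes were named from the platform annotation, and all 83 member probe sets matched RefSeq by Entrez identifier.

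Group means were fitted to all 9 arrays and 19937 genes with limma 3.58.1 in R 4.3.3 (lmFit and eBayes, 5 residual and 3.85 prior degrees of freedom, two-sided tests, Benjamini-Hochberg over all genes). Every adjusted p here is from limma. Comparisons were each hairpin minus Rluc, the equally weighted mean of the 3 hairpins minus Rluc, pairs of hairpins, and a moderated F test among hairpins. The fit was tested on simulated data. The number of arrays limits precision. Members, lists, tests and alternatives were chosen with earlier results of these data known. Genes named are, per prefix, the 5 largest called mean changes, the largest rise and the smallest change, the 8 smallest F test p-values, paralog pairs, catalytic subunits and genes whose probe sets disagree in sign; the others were named after their values were seen. Same-numbered arrays deviated together with correlations between -0.0721 and 0.249. The highest, 0.19 and 0.249, were both of Brg1sh_3232 with Rluc. Deviations in a group of 2 arrays mirror each other, so this check cannot decide whether the numbers pair the arrays. The main fit used no pairing, and with the replicate block 30 members were lower in the mean. Alternatives were other normalizations, filters, probe set rules, eBayes settings, weights, thresholds, the replicate block, leaving out arrays and other replicate units.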

Additional observations from a re-analysis of the deposited data

Results flagged for a closer look

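In 10 members the 3 hairpins differed from each other by the limma F test, adjusted over all genes. The adjusted p was 0.00101 for Taf9b, 0.00258 for Taf7, 0.00876 for Polr2l, 0.0126 for Taf1, 0.0184 for Taf1d, 0.0233 for Gtf2a1, 0.0284 for Taf5, 0.0301 for Taf10, 0.0395 for Gtf3c1 and 0.0447 for Gtf3a. In the order Brg1sh_3232, Brg1sh_3364 and Brg1sh_4935, log2 changes against Rluc were -0.02, -0.47 and -0.25 for Taf1d and 0.03, -0.15 and -0.21 for Gtf3c1. The Taf1d values are of the probe set used; with Brg1sh_3232 its other 5 probe sets gave -0.07 to -0.64, of which 2 were called lower, and the F test given here is of the probe set used. For Gtf3a they were 0.00, -0.29 and -0.21, and for Taf5 -0.58, -0.17 and -0.51. Groups of 2 and 3 arrays are too small for a test of single arrays that stand apart.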

How the results depend on the processing

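Counts of lower and higher members fell mainly under stricter or smaller fits. For lost calls the cause was not tested except where fewer arrays or a stricter threshold make it plain. Some settings raised the lower counts, which were 25, 28, 31 and 39 in the main fit (Brg1sh_3232, Brg1sh_3364, Brg1sh_4935, mean). Array centring gave 26, 37, 46 and 43, against 12.9%, 15.0%, 16.9% and 19.0% of all genes. Array weights gave 21, 33, 37 and 41, against 10.3%, 12.7%, 14.0% and 14.9%. With Brg1sh_3232, 15 lower and 1 higher were called when every probe set was tested, against 5.48% and 5.02% of all rows. For this hairpin the replicate block gave 16 and 1, against 9.41% and 8.08% of all genes. Fitting only the compared groups gave 13 and 1, against 6.48% and 5.94%. At adjusted p below 0.01 there were 12 and 0, against 1237 and 1143 of all 19937 genes. At an absolute log2 change of at least 0.25, 0 were higher, against 1453 of all genes. At adjusted p below 0.01, 1 was higher with Brg1sh_3364, 17 were lower with Brg1sh_4935, 0 were higher in the mean, and the F test called 3. Over all genes these counts were 1818, 1482, 1881 and 775. In the mean, hairpin means as replicates gave 15 lower and 1 higher, against 7.42% and 6.71% of all genes. The size threshold gave 20 and 0 in the mean, against 1769 and 1680 of all genes. Higher members in the mean numbered 1 with arrays centred, 1 with every probe set tested and 0 with the replicate block. The shares over everything tested were 10.9%, 8.88% and 11.2%. The F test called 17 of the 69 members at or above the median level, against 24.4% of all such genes. With every probe set tested it called 4 members, against 3.26% of all rows. Array centring gave medians of -0.17, -0.21, -0.26 and -0.21 for all members (Brg1sh_3232, Brg1sh_3364, Brg1sh_4935, mean). With Brg1sh_4935 it gave -0.25 for Polr2, -0.29 for Gtf2, -0.27 for Gtf3 and -0.20 for Taf, and for Taf -0.14 with Brg1sh_3364 and -0.16 in the mean. The replicate block gave -0.17 with Brg1sh_4935 and -0.14 in the mean for all members; averaging probe sets gave -0.13 for Polr2 with Brg1sh_3232. Leaving out 1 array gave 12 to 25 lower and 0 to 3 higher with Brg1sh_3232, 14 to 31 and 1 to 3 with Brg1sh_3364, 12 to 34 and 0 to 1 with Brg1sh_4935, 0 to 2 higher in the mean, and 3 to 13 by the F test. The 12 with Brg1sh_3232 and with Brg1sh_4935 came without replicate 1 of that hairpin, the 14 with Brg1sh_3364 without its replicate 2. For higher members with Brg1sh_3232, 3 came without its replicate 1, 0 without its replicate 2, and 1 without Rluc replicate 1 or 3. With Brg1sh_3364, 1 came without its replicate 1, and with Brg1sh_4935, 1 came without either Brg1sh_3232 array. In the mean, 0 came without Rluc replicate 3, and 1 without Brg1sh_3232 replicate 2, Brg1sh_3364 replicate 1, Brg1sh_4935 replicate 1 or Rluc replicate 2. The lone array left in an arm is assumed to vary like the other groups. Without an array of a hairpin, the counts over all genes also fell, for that hairpin against Rluc and for the F test. For all members the median ranged between -0.20 and -0.13 with Brg1sh_3364, -0.21 and -0.17 with Brg1sh_4935, and -0.19 and -0.14 in the mean. By class it ranged between -0.29 and -0.19 for Gtf2 with Brg1sh_4935 and between -0.21 and -0.13 for Gtf3 with Brg1sh_3364. For Taf it ranged between -0.15 and -0.10 with Brg1sh_3232, -0.17 and -0.14 with Brg1sh_4935, and -0.13 and -0.0801 in the mean. Of all values of named genes under the alternatives, 0 reversed a call, 253 lost one and 74 gained one. Fits with fewer arrays are among them. In the mean, Polr1a, Polr1c, Polr1d, Polr2l, Taf1b, Taf4b and Taf9 each lost their call in 1 alternative. Taf8 lost its call in the mean with the replicate block and without Rluc replicate 3.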
